A study of Homo sapiens with 9 samples.

Results

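The Hippo kinase and upstream regulator genes are 6 genes whose products switch the co-activator YAP off: NF2, STK3, STK4, SAV1, LATS1 and LATS2. Peaks were listed under a gene when their summit lay within 50 kb of its hg19 position, and 30 of 60345 peaks in 5 lists met this rule. The lists come from chromatin immunoprecipitation sequencing (ChIP-seq) in 786-O, an established clear cell renal carcinoma line that lacks functional VHL. They hold the binding sites of p65 (RELA), a DNA-binding subunit of NF-κB, in cells given siTEAD4 and in control cells, and in cells given the MST1 and MST2 inhibitor XMU-MP-1 and in cells given vehicle. A further list holds the binding sites of TEAD, the DNA-binding partner of YAP, in XMU-MP-1 cells. There is 1 library per condition, with no TEAD list from vehicle, control or siTEAD4 cells used here, so no difference between them can be checked against replicates and none is tested.

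In the Hippo pathway the membrane-associated protein NF2 (merlin) brings the core kinases to the cell cortex. STK4 (MST1) and STK3 (MST2), held by the scaffold SAV1, phosphorylate LATS1 and LATS2, which then phosphorylate YAP and keep it out of the nucleus. Nuclear YAP works through TEAD. Transcription of LATS2 and NF2 has been described as a target of YAP and TEAD, which makes a negative feedback on YAP.

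The 6 genes fell into 3 patterns. TEAD peaks without a p65 peak in any list surrounded LATS2. TEAD peaks of XMU-MP-1 cells overlapped p65 peaks of vehicle or control cells at SAV1 and NF2, and at a site near STK4. At STK3 and LATS1 only p65 was called, in the control and vehicle lists. Neither the list labelled siTEAD4 nor the XMU-MP-1 p65 list held a peak within 50 kb of any of the 6 genes.

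By list, the windows held 13 TEAD peaks, 0 p65 peaks labelled siTEAD4 against 8 in control cells, and 0 p65 peaks in XMU-MP-1 cells against 9 in vehicle cells. The whole lists held 23460 TEAD peaks, 1813 p65 peaks labelled siTEAD4 against 15465 in control cells, and 1649 in XMU-MP-1 cells against 17958 in vehicle cells. TEAD peaks were found at 4 of the 6 genes, and p65 peaks at 5 of 6 among control and at 5 of 6 among vehicle peaks. The background is 13570 tiles of 100 kb that hold a peak of any list: 80.6% of them had a TEAD peak, 10.8% a peak labelled siTEAD4, 61.0% a control peak, 9.57% an XMU-MP-1 p65 peak and 67.2% a vehicle peak. These tiles are not centred on genes. For 6 genes, a count of 0 with a peak labelled siTEAD4 or an XMU-MP-1 p65 peak is near those tile shares. The 30 peaks lay at 19 separate sites, of which 8 had TEAD only, 6 had p65 only and 5 had both. The peak identifiers in the list labelled siTEAD4 carry the name p65_Vert, which is in no label used here, so its treatment rests on the sample label alone.

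**Figure D1:**
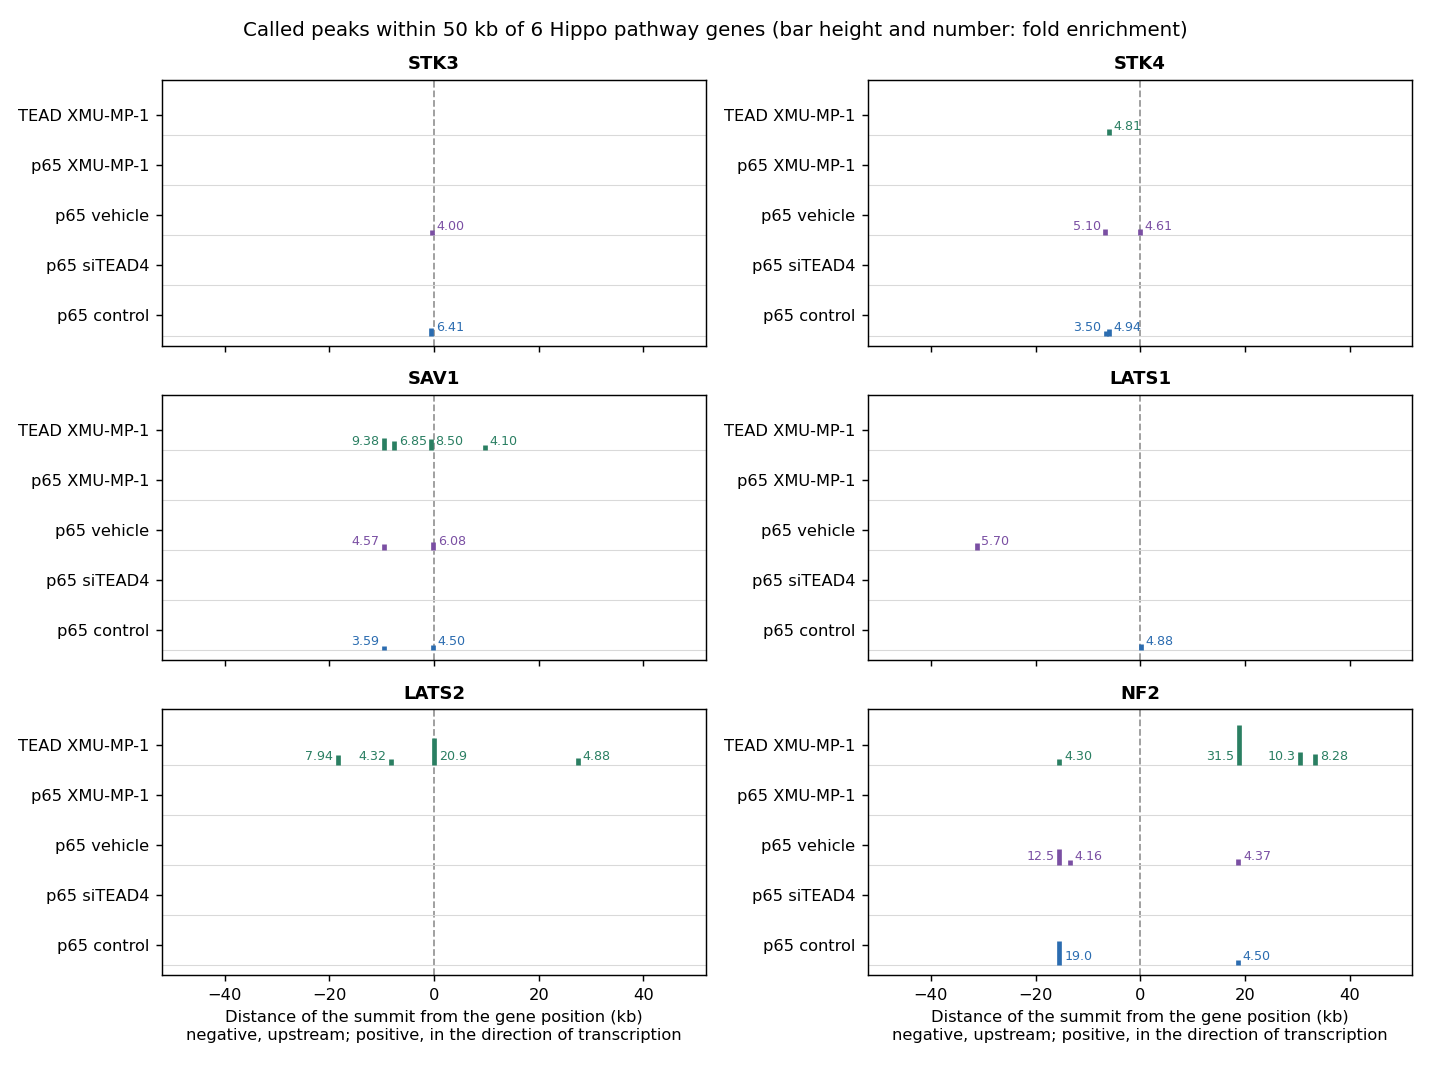
Peaks within 50 kb of each gene, by list. The horizontal axis is the distance of the summit from the gene position in kb, with upstream negative. Bar height and the printed number are the fold enrichment over the background used in calling the same list. TEAD bars reach 31.5 at NF2 and 20.9 at LATS2, and the rows of the XMU-MP-1 and siTEAD4-labelled p65 lists are empty.

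Promoter sequences are shown for the genes at which a called peak spans the gene position: LATS2 and SAV1 (TEAD) and STK4 (p65 in vehicle cells). They run 5′ to 3′ on the strand of the gene, from 250 bases before the RefSeq start to 30 bases after it. The build of the sequences is GRCh38.p14, and the peaks are in hg19, so peaks were not placed on these letters base by base. Capitals mark the TEAD core motif GGAATG, searched on both strands.
LATS2, chr13:21061557-21061836, minus strand: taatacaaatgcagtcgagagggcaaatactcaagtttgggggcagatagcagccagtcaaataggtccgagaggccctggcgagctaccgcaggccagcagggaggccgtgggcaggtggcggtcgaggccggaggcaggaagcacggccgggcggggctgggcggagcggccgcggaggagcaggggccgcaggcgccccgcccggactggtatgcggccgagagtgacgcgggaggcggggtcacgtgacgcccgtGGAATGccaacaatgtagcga
SAV1, chr14:50668277-50668556, minus strand: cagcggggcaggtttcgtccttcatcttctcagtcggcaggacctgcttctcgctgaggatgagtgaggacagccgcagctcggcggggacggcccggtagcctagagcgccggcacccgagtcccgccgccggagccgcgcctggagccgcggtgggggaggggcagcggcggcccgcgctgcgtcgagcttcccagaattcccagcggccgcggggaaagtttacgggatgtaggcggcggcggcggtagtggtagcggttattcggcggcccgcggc
STK4, chr20:44966262-44966541, plus strand: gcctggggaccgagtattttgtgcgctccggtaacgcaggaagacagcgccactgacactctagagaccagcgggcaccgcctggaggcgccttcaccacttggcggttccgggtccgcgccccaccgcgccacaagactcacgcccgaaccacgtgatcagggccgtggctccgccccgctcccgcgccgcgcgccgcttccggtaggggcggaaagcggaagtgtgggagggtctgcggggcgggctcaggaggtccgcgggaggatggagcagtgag

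The LATS2 window held 1 match to the TEAD core, on the strand of the gene, from base 10 to base 15 after the RefSeq start. No match was found in the windows of SAV1, STK4, LATS1 or NF2, each taken from 250 bases before to 50 after the start. LATS1 and NF2 have 2 RefSeq starts each in the table, and both were searched. The core was present in 14.0% of all 35116 promoter windows of this length. The strict kappaB consensus of NF-κB was in none of the windows of these 5 genes and in 11.3% of all windows, and the motifs do not overlap. A match describes letters and not occupancy.

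LATS2, the kinase that phosphorylates YAP, had the TEAD peak nearest to a gene position. Its summit lay 9 bp upstream of the position, in a peak of 556 bp on chromosome 13 from 21635442 to 21635997. The TEAD fold there was 20.9 in XMU-MP-1 cells, from 46 fragments at the summit, and 4.41% of the TEAD list had a fold at least as high. This is the gene whose promoter carries the TEAD core in the sequences above.

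A second TEAD peak with a fold of 7.94 lay 18.3 kb upstream of LATS2. Weaker TEAD peaks lay 8.21 kb upstream, with a fold of 4.32, and 27.5 kb downstream, with a fold of 4.88. They rest on 18, 8 and 13 fragments at the summit in the order given, so the weakest was called on few reads.

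No p65 peak of any list lay within 50 kb of LATS2. The nearest were 349 kb upstream, where the fold was 7.99 in vehicle and 8.89 in control cells. The nearest peak labelled siTEAD4 was 9081 kb away and the nearest XMU-MP-1 p65 peak 10203 kb away. Of the tile centres, 0.324% were at least as far from the nearest p65 peak of either treated list. Tiles that hold a treated peak are among them and neighbouring tiles are not independent, so this share is a description and no test. A TEAD peak without p65 is not rare at this strength: of the 521 TEAD peaks with a fold within 10% of 20.9, 44.3% (95% Wilson interval 40.1 to 48.6) had no p65 peak in any list, and 60.3% of all TEAD peaks had none. Near the 6 genes it was 8 of 13 (61.5%).

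LATS1, the paralogue of LATS2, had no TEAD peak within 50 kb. The nearest TEAD summit was 117 kb upstream, with a fold of 5.21. LATS1 had 1 p65 peak in the control list, 137 bp downstream of the gene position on chromosome 6 from 150039154 to 150039338, and its fold was 4.88 from 22 fragments. That peak had no counterpart in the vehicle list. The vehicle list had its own peak 31.3 kb upstream of LATS1, with a fold of 5.70 from 18 fragments and no counterpart in the control list. The control and vehicle p65 lists therefore shared no site at LATS1, and LATS1 was the only gene with p65 peaks of which this was true. In the GRCh38 gene order NUP43 and PCMT1 follow LATS1 on that upstream side, and the vehicle peak is listed under LATS1 by distance alone.

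NF2, the upstream regulator that recruits the kinases, had the most peaks, 9, at 5 sites: 4 TEAD peaks, 2 control p65 peaks and 3 vehicle p65 peaks. Its strongest TEAD site lay 18.8 kb downstream of the gene position, in the direction of transcription, on chromosome 22 from 30017680 to 30018704. The TEAD fold was 31.5 in XMU-MP-1 cells, from 109 fragments, and 1.33% of the TEAD list had a fold at least as high, rank 311 of 23460. This was the strongest of the 13 TEAD peaks near these genes.

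p65 was called weakly at that same NF2 site. Its fold was 4.37 in the vehicle list, from 15 fragments, and 4.50 in the control list, from 29 fragments. In the vehicle list 83.5% of peaks had a fold at least as high, and in the control list 81.1%. The TEAD summit was 47 bp from the vehicle and 86 bp from the control p65 summit. Further downstream, TEAD alone was called 30.6 kb from the NF2 position with a fold of 10.3, and 33.4 kb from it with a fold of 8.28.

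The order was the other way round 15.4 kb upstream of NF2, on chromosome 22 from 29983880 to 29984533. There the TEAD fold was 4.30 in XMU-MP-1 cells, from 12 fragments, a value exceeded or equalled by 85.6% of the TEAD list. The p65 fold was 12.5 in the vehicle list, from 42 fragments, and 19.0 in the control list, from 80 fragments. These were the strongest p65 peaks of the 6 genes in both lists: 9.77% of vehicle peaks and 2.59% of control peaks had a fold at least as high. The summit of TEAD lay 49 bp from the vehicle and 15 bp from the control p65 summit. NIPSNAP1 is the neighbour of NF2 on this side in the GRCh38 gene order, and the site is listed under NF2 by distance alone. A weak p65 peak, fold 4.16 from 12 fragments, was called 13.4 kb upstream in the vehicle list alone.

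STK3 (MST2), a direct target of XMU-MP-1, had 1 p65 site and no TEAD peak. The p65 summit lay 440 bp upstream of the gene position in the vehicle list and 511 bp upstream in the control list, on chromosome 8 from 99838177 to 99838493. The fold was 4.0 in the vehicle list, from 20 fragments, and 6.41 in the control list, from 42 fragments. The nearest TEAD peak was 485 kb downstream. STK3 is transcribed from the minus strand, and its position is the one given by the rule.

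STK4 (MST1), the other kinase inhibited by XMU-MP-1, had its p65 peaks at 3 sites. In the vehicle list a peak of 184 bp spanned the gene position, on chromosome 20 from 43594957 to 43595140, and its fold was 4.61 from 12 fragments. No other list had a peak there. About 6 kb upstream, a site from 43588344 to 43588633 had p65 folds of 5.10 in vehicle cells and 3.50 in control cells. Next to it, from 43588955 to 43589272, TEAD had a fold of 4.81 in XMU-MP-1 cells from 11 fragments, and p65 had a fold of 4.94 in the control list and no vehicle peak. The TEAD and control p65 summits there were 29 bp apart. TOMM34 neighbours STK4 on this side in the GRCh38 gene order, and the upstream sites are listed under STK4 by distance alone.

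SAV1, the scaffold that holds the MST kinases, had 8 peaks at 4 sites. At the start of the gene a TEAD peak of 1034 bp spanned the gene position, on chromosome 14 from 51134823 to 51135856, and its fold was 8.50 from 34 fragments. The p65 fold within it was 6.08 in vehicle cells and 4.50 in control cells. The p65 summit lay 207 bp upstream of the gene position in the vehicle list and 248 bp upstream in the control list, and the TEAD summit 643 bp upstream. TEAD and p65 were therefore 436 bp apart in the vehicle and 395 bp apart in the control list, so the peaks overlapped but their summits did not coincide.

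A further SAV1 site, 9.58 kb upstream from 51144219 to 51144804, had TEAD and p65 on almost the same base. The summit of TEAD was 7 bp from that of vehicle and 11 bp from that of control p65. Over all overlapping pairs the median distance was 60 bp between TEAD and vehicle p65 and 56 bp between TEAD and control p65. The TEAD fold was 9.38 in XMU-MP-1 cells, and the p65 fold was 4.57 in vehicle cells and 3.59 in control cells. TEAD alone was called 7.65 kb upstream with a fold of 6.85, and 9.72 kb downstream with a fold of 4.10.

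**Figure D2:**
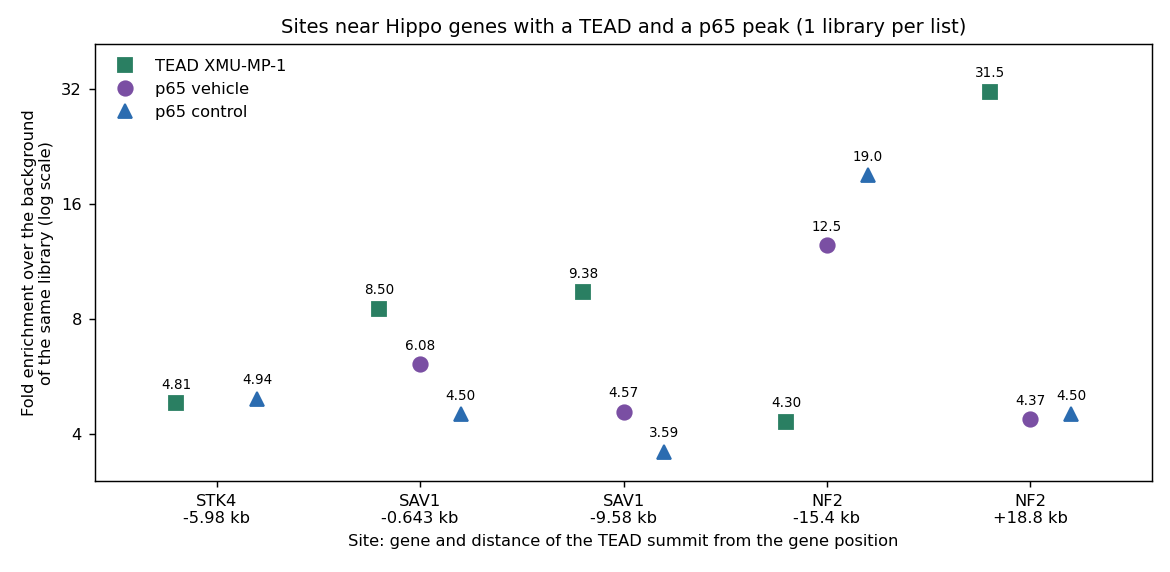
Fold enrichment at the 5 sites with a TEAD and a p65 peak, relative to the background used in calling the list concerned, on a log axis. There is 1 marker per library, with TEAD in XMU-MP-1 cells left of p65 in vehicle and control cells. TEAD has 31.5 where p65 has 4.37 and 4.50 (NF2, 18.8 kb downstream), and 4.30 where p65 has 12.5 and 19.0 (NF2, 15.4 kb upstream).

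How often TEAD peaks of XMU-MP-1 cells overlapped vehicle or control p65 peaks at these genes was near the figure for the whole lists. A TEAD peak overlapped 4 of 9 vehicle p65 peaks (44.4%, 18.9 to 73.3), against 45.6% of all vehicle peaks. It overlapped 5 of 8 control p65 peaks (62.5%, 30.6 to 86.3), against 47.4% of all control peaks. Of the 13 TEAD peaks, 4 (30.8%) had a vehicle p65 peak and 5 (38.5%) a control p65 peak, against 34.5% and 30.9% of all TEAD peaks. None of the 13 had a p65 peak in XMU-MP-1 cells, which allows a share of up to 23.1%, against 5.26% of all TEAD peaks.

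The control and vehicle lists shared 6 p65 sites near these genes. A vehicle peak was found at 6 of 8 control peaks (75%), against 79.5% of all control peaks, and a control peak at 6 of 9 vehicle peaks (66.7%), against 68.5% of all vehicle peaks. The sites found in only 1 of these lists were weak. Their folds were 4.94 near STK4 and 4.88 at LATS1 in the control list. In the vehicle list they were 4.61 at STK4, 5.70 near LATS1 and 4.16 near NF2. Apart from the upstream NF2 site, the shared sites were weak too. Their folds ran from 3.50 to 6.41 in the control list. In the vehicle list they were at most 6.08, with 4.37 at the downstream NF2 site. Low fold therefore did not set the unshared sites apart from these shared sites. The p65 peaks of these genes were mostly weak for their lists. Their median fold was 4.61 among vehicle and 4.69 among control peaks, against 5.87 and 5.98 over the whole lists, and 2 peaks in each list lay above the list's median. TEAD peaks had a median fold of 7.94, against 6.27 in the whole list, and 8 of 13 were above the list's median.

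The comparison of siTEAD4-labelled with control cells asks which p65 sites are still called under the siRNA, named siTEAD4 in the title and siTEAD in the treatment label. None of the 8 control peaks had a peak in the list labelled siTEAD4, which allows a share of up to 37.5%, against 11.2% of all control peaks. The share differed with strength. The 7 peaks with a fold of 3.50 to 6.41 are of a kind rarely kept: among control peaks within 10% of each one's fold, between 1.48% and 4.38% had a peak labelled siTEAD4. The upstream NF2 site was different. Of the 349 control peaks with a fold within 10% of 19.0, 67.6% (62.5 to 72.3) had a peak labelled siTEAD4, and the NF2 site did not. Among the 189 of these that, like the NF2 site, also had a vehicle and a TEAD peak, the share was 82.5% (76.5 to 87.3). The folds of those vehicle and TEAD peaks were not matched, and at the NF2 site they were 12.5 and 4.30.

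The comparison of XMU-MP-1 with vehicle cells asks the same under inhibition of MST1 and MST2. None of the 9 vehicle peaks had an XMU-MP-1 p65 peak, which allows a share of up to 33.3%, against 8.77% of all vehicle peaks. The fewest fragments at a summit were 14 in the XMU-MP-1 p65 list, with pileups scaled by 0.783, and 7 in the unscaled vehicle list. The vehicle peaks at the STK4 position and 13.4 kb upstream of NF2 rested on 12. In the other comparison the fewest were 12 in the list labelled siTEAD4 and 13 in the control list, scaled by 0.587. These counts are not read totals, and a difference in depth was not tested. A peak that is not called is not a measure of p65 lost. For the 8 vehicle peaks with a fold of 4.0 to 6.08, between 1.21% and 3.01% of vehicle peaks of like fold had an XMU-MP-1 p65 peak. For the upstream NF2 site, with a vehicle fold of 12.5, this share was 24.1% (21.4 to 26.9). It was 40.5% (35.9 to 45.3) among the 422 that also had a control and a TEAD peak, each of any fold. The site thus had TEAD called in XMU-MP-1 cells and p65 called only in vehicle and control cells. No p65 peak in either treated list was found at 196 (46.4%, 41.7 to 51.2) of the 422 vehicle peaks matched to it in this way, and at 25 (13.2%, 9.12 to 18.8) of the 189 matched control peaks. Because the site was singled out after its values were seen, these shares describe it and test nothing.

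**Figure D3:**
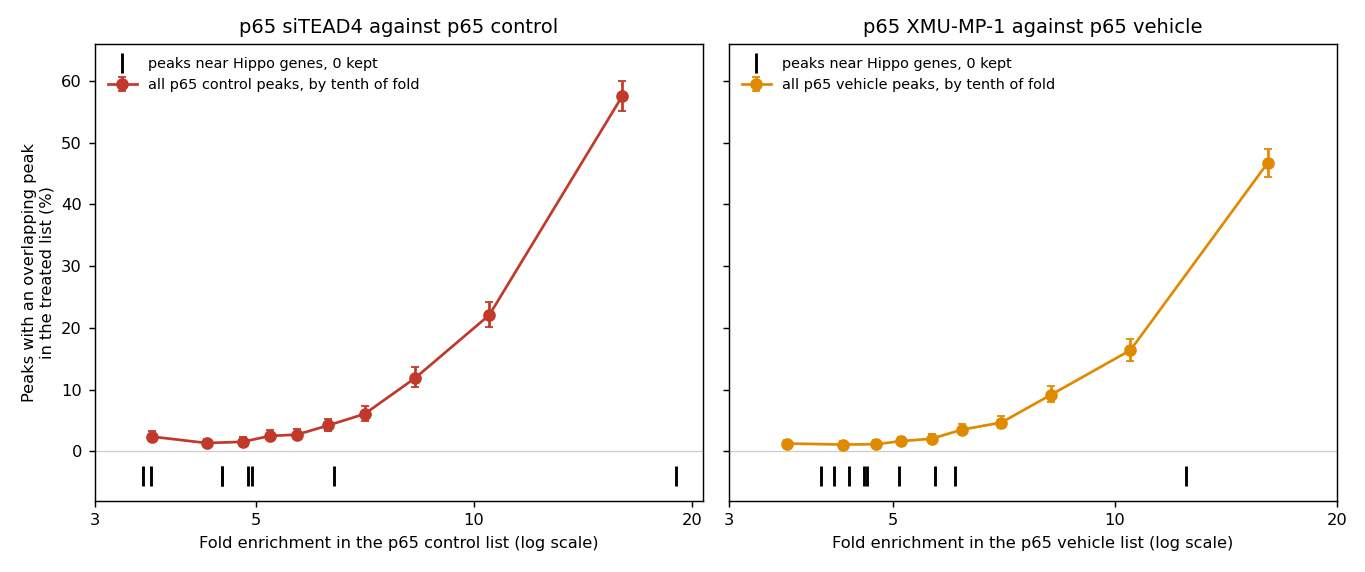
Share of p65 peaks with an overlapping peak in the treated list, by class of fold enrichment, 10 classes of equal size (points at the median fold, 95% Wilson intervals over peaks), for the list labelled siTEAD4 against control on the left and XMU-MP-1 against vehicle on the right. Black ticks mark the peaks near the 6 genes, none of which had a treated peak; most lie at low folds, where few peaks of any gene had one, and the NF2 site stands alone at 19.0 among control and 12.5 among vehicle peaks.

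The p65 peaks of the treated lists nearest to the genes were far outside the windows. In the list labelled siTEAD4 they lay 372 kb from STK4, 436 kb from NF2, 686 kb from LATS1, 775 kb from SAV1 and 1677 kb from STK3. In the XMU-MP-1 list they lay 324 kb from SAV1, 382 kb from STK4, 436 kb from NF2, 686 kb from LATS1 and 896 kb from STK3. The tile centres had a median distance of 403 kb to a p65 peak of either treated list, and the genes were compared with them by the nearer of these lists. For STK3, STK4, LATS1, SAV1 and NF2, between 27.7% and 55.7% of tile centres were at least as far from a treated p65 peak, against 0.324% for LATS2. These shares describe positions and test nothing, since tiles chosen for holding a peak of any list include those with a treated peak. Near NF2 and LATS1 both treated lists had their nearest peak at the same place, 436 kb upstream with a fold of 4.26 in the list labelled siTEAD4 and 8.16 in the XMU-MP-1 list, and 686 kb downstream with 6.52 and 4.06.

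Peaks just outside the windows were few. Between 50 and 100 kb from a gene position, STK4 had 1 vehicle and 1 control p65 peak, both 81.0 kb away with folds of 4.58 and 7.10, and 1 TEAD peak 94.9 kb away with a fold of 3.16. NF2 had 1 vehicle peak 98.1 kb away with a fold of 5.69. The other 4 genes had none. The farthest peaks inside were TEAD at NF2, 33.4 kb away, and p65 at LATS1, 31.3 kb away.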

How the data were processed

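Formaldehyde-fixed chromatin from 786-O cells was sequenced in 9 libraries, 4 of them input, per the labels. The submitters' processing notes name fastp, Bowtie2 2.4.5, MACS2 and the hg19 build. MACS2 settings and the input paired with a list are not stated in these sources. Each immunoprecipitate has 1 deposited peak list with, per peak, the authors' fold (ratio to the local background of that library), −log10 p-value, −log10 q-value and a score that tracks 10 times the −log10 q and was not used. Folds of different lists stand side by side as values only. The lowest −log10 q was 1.30 to 1.55, and 7 to 147 peak numbers per list are skipped.

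Gene positions came from the rule for the 6 genes, strands from the RefSeq promoter table (STK3 from general knowledge). Other Hippo genes were not analysed here, for want of an hg19 annotation. The members and lists were chosen with earlier results of these data known. With so few peaks, every site is given, so the rule for named sites left none out. Peaks were shared when at least 1 bp overlapped. Shares have 95% Wilson intervals, and the limit for a count of 0 is 3 counts of the total. Both cover counting only.

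The lists give no read totals. Fragments at a summit were solved from fold and p-value, with the pileup plus 1 over the background plus 1 as the fold and a Poisson tail as p. Between 99.96% and 100% of a list were solved within 0.005 of −log10 p, with pileups scaled by 0.587 in the control and 0.783 in the XMU-MP-1 p65 list, and all 30 peaks had 1 solution. Python 3.11.15, numpy 2.4.6, pandas 2.3.3 and scipy 1.17.1 were used, and the code was tested on simulated data. Alternatives were the fold and −log10 q limits, the window, and the overlap rule.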

Additional observations from a re-analysis of the deposited data

How the results depend on the processing

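Of 70 recomputed values, 60 stayed within 1.5 times a reported count or within the interval of a reported share, 10 moved and none reversed, though counts and shares have no direction. The counts of 0 in the list labelled siTEAD4 and in the XMU-MP-1 p65 list held in every setting run. Stricter limits and the 25 kb window can only remove peaks, so there a count of 0 was fixed in advance. Only the 100 kb window, and counting any peak interval that reached into the window, could have changed it. The shares of 0 kept in these lists were also fixed under those settings and under the 50% overlap. Such fixed values are among the 60 and say nothing about stability. All moves came from stricter limits, which remove weak peaks. With a minimum −log10 q of 5 the control p65 count was 4. With a minimum of 10 there were 7 TEAD, 1 vehicle p65 and 2 control p65 peaks, and TEAD and vehicle p65 no longer coincided: 0% of TEAD peaks had a vehicle p65 peak, and 0% of vehicle p65 peaks, of which there was 1, had a TEAD peak. With a minimum fold of 5 there were 8 TEAD, 4 vehicle p65 and 2 control p65 peaks, and 12.5% of TEAD peaks had a vehicle p65 peak. The same limits were not run for the shares over the whole lists. No paired analysis was possible because the conditions have 1 library each.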
